A study of Mus musculus with 8 samples.

Results

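The 9 genes described here carry or restrain the Nodal signal: Nodal, Gdf3, Tdgf1, Acvr2b, Lefty1, Lefty2, Cer1, Smad7 and Skil. They were taken by symbol from the 55078 genes of a table of FPKM (fragments per kilobase of transcript, scaled to the mapped fragments of a library) and were read in all 8 of its libraries. The libraries hold messenger RNA from 46C, a mouse embryonic stem cell line known for its reporter in the neural gene Sox1, and from 46C cells labelled KO for a deletion of Dip2c. They are KO-labelled and WT-labelled cells after 6 days in N2B27 induction medium, their KO-labelled and WT-labelled day 0 stem cells, KO-labelled and WT-labelled cells after 4 days in KSR induction medium, and their KO-labelled and WT-labelled day 0 stem cells. All day 0 cells were proliferating in stem cell medium, and both induction media serve to turn such cells into neural cells. Each condition holds 1 library of either genotype. The labels name neither clones nor separate cultures, so p-values measure only the spread between these libraries.

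Nodal is a secreted ligand of the TGF-beta superfamily. Together with a co-receptor of the EGF-CFC family it engages type I and type II activin receptors, and the receptors phosphorylate Smad2 and Smad3, which enter the nucleus with Smad4 and partners such as Foxh1. The pathway switches on its own ligand and its own secreted antagonists, the Lefty proteins, and in the mouse embryo it drives mesendoderm formation while holding back the neural fate.

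Depth and read counts are not in the table. The FPKM of a library summed to between 508556 and 635836, and 13451 to 14329 genes reached 1 FPKM. Dip2c, the targeted gene, was at 2.91 to 4.43 FPKM in the 4 KO-labelled libraries and at 2.74 to 5.78 FPKM in the 4 WT-labelled ones. Its level thus did not separate the labels, and the table does not show which exons were read. The labels also conflict: for the KO-labelled KSR and the WT-labelled N2B27 libraries the sample descriptions name each other's columns, while the titles fit the column names, which were followed. If the descriptions were right, those 4 libraries would change places in every comparison below. The Y-linked gene Eif2s3y was at 0 in the 4 columns named for Dip2c and at 7.03 to 14.9 FPKM in the 4 columns named 46C, so it divides the libraries as the column names do. It was the 1 gene of all tested that passed between the labels over the 4 conditions (−3.39 ± 0.19 on the scale of log2 of FPKM plus 1, limma adjusted p = 0.00747). The 6 naive stem cell markers, led by Pou5f1, summed to 1748 to 1814 FPKM in KO-labelled and 2014 to 2097 FPKM in WT-labelled day 0 cells. The 6 neural progenitor markers (Sox1, Pax6, Nes, Cdh2, Fabp7 and Hes5) summed to 540 FPKM in KO-labelled and 712 FPKM in WT-labelled cells at N2B27 day 6, and to 238 FPKM in KO-labelled and 314 FPKM in WT-labelled cells at KSR day 4. At day 0 that sum was 6.25 to 7.04 FPKM in KO-labelled and 7.79 to 9.87 FPKM in WT-labelled cells. The sum at N2B27 day 6 does not stand for each gene. Fabp7, Pax6 and Hes5 were lower in KO-labelled cells there, with Fabp7 at 205 FPKM in KO-labelled and 358 FPKM in WT-labelled cells. Sox1 (56.9 and 42.9 FPKM) and Nes (89.6 and 84.3 FPKM) were higher in KO-labelled cells, and Cdh2 was at 82 FPKM in both.

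Tdgf1 (chr9:110939603-110946158, − strand, GRCm38) has a processed pseudogene, Tdgf1-ps1 (chr16:3730510-3731022, + strand), that could share reads with it, and the sequences show how alike the copies are. The first 90 coding bases of Tdgf1 and the matching bases of the pseudogene follow, 5′ to 3′, from the GENCODE M21 transcripts, with capitals at the letter that differs.
Tdgf1: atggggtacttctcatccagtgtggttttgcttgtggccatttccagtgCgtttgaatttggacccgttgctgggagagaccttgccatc
Tdgf1-ps1: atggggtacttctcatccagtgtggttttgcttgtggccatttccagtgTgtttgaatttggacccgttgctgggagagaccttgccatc
The copies differ at 1 of the 90 bases shown. They were 98.6% identical over 513 bases, with 7 differences, and 5 of 364 stretches of 150 bases were the same in both, where 150 bases is the length of 1 read, so most such stretches hold at least 1 difference. Lefty1 and Lefty2 are close paralogues, and how reads that fit both were counted is not given either, so their separate levels carry the same doubt.

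The table gave the pseudogene a higher FPKM than Tdgf1 in every library. Tdgf1-ps1 was at 2.38 FPKM in KO-labelled and 7.69 FPKM in WT-labelled cells at N2B27 day 6, and at 303 FPKM in KO-labelled and 455 FPKM in WT-labelled cells at their day 0. In KSR it was at 7.08 FPKM in KO-labelled and 5.51 FPKM in WT-labelled cells at day 4, against 512 FPKM in KO-labelled and 641 FPKM in WT-labelled cells at day 0. The ratio of the pseudogene to Tdgf1 lay between 1.42 and 2.15 in the 8 libraries. How reads were divided between the copies is not given in the sources used here, so the level of Tdgf1 is uncertain, while both copies were lower in each differentiated library than in its day 0 library.

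**Figure D1:**
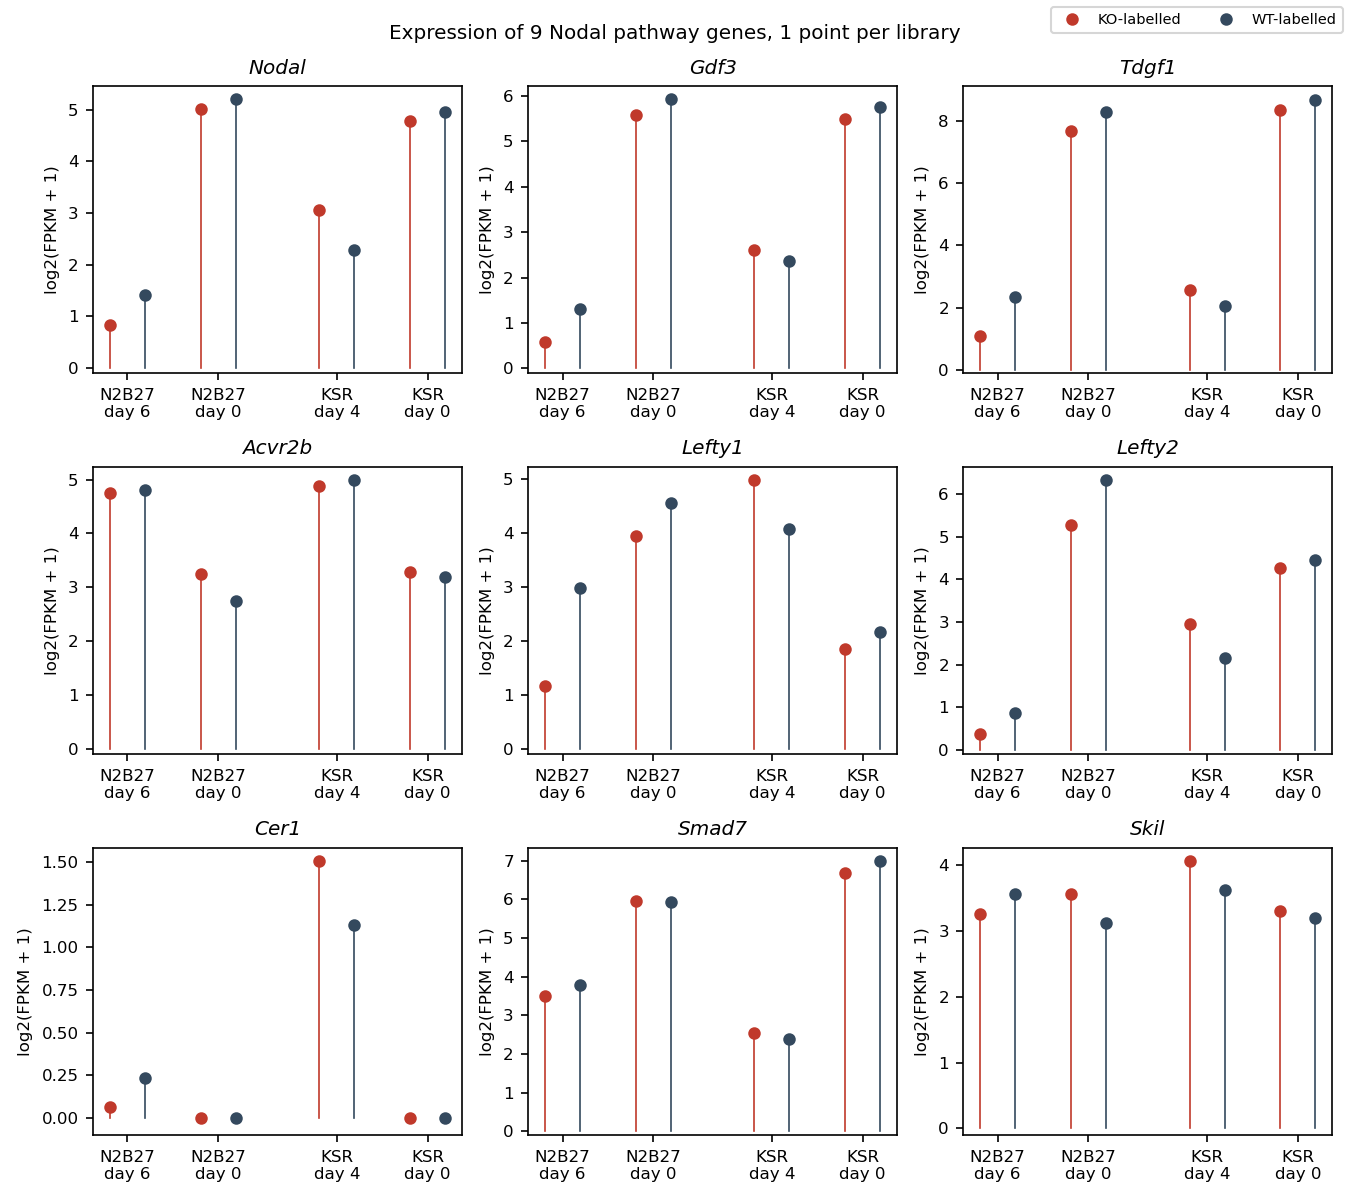
Level of each of the 9 genes as log2 of FPKM plus 1, 1 point per library, with KO-labelled libraries in red and WT-labelled libraries in dark blue. Nodal, Gdf3, Tdgf1, Lefty2 and Smad7 are lower in all 4 differentiated libraries than in their day 0 libraries, Acvr2b is higher in all 4, and Lefty1 is higher at KSR day 4 and lower at N2B27 day 6.

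Both ligands fell in both media. Nodal (chr10:61417972-61425338, + strand) was at 0.778 FPKM in KO-labelled and 1.66 FPKM in WT-labelled cells at N2B27 day 6, against 31.2 FPKM in KO-labelled and 35.8 FPKM in WT-labelled cells at day 0. The KSR series had it at 7.28 FPKM in KO-labelled and 3.84 FPKM in WT-labelled cells at day 4, against 26.6 FPKM in KO-labelled and 29.9 FPKM in WT-labelled cells at day 0. Its order was therefore N2B27 day 6 lowest, KSR day 4 next and the day 0 groups highest, with no overlap between these 3 levels. The fitted log2 difference from day 0 was −3.99 ± 0.30 in N2B27 (SE, 2 pairs of libraries; adjusted p = 7.85e-05, limma) and −2.20 ± 0.30 in KSR (adjusted p = 0.00118, limma). The day 0 groups differed by 0.24 ± 0.30 between the N2B27 and the KSR series (adjusted p = 0.719, limma; 95% interval −0.48 to 0.96). All differences below are on the scale of log2 of FPKM plus 1, which understates the change of low genes, and p-values are adjusted over all 15965 genes tested.

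Gdf3 (chr6:122605403-122610087, − strand), a related ligand that can signal through the same receptors, followed the same order. It was at 0.487 FPKM in KO-labelled and 1.46 FPKM in WT-labelled cells at N2B27 day 6, against 46.6 FPKM in KO-labelled and 59.5 FPKM in WT-labelled cells at day 0. At KSR day 4 it was at 5.06 FPKM in KO-labelled and 4.16 FPKM in WT-labelled cells, against 43.8 FPKM in KO-labelled and 53.0 FPKM in WT-labelled cells at day 0. The cells kept 1.04% to 2.45% of the day 0 level of Gdf3 in N2B27 and 7.85% to 11.6% of it in KSR. The fitted differences were −4.81 ± 0.23 in N2B27 and −3.14 ± 0.23 in KSR (limma adjusted p = 1.52e-05 and 7.62e-05 in that order). In bulk RNA, fewer cells of a type and less RNA per cell cannot be told apart, for these or the other genes.

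The co-receptor and the receptor went opposite ways. Tdgf1 (also called Cripto), the EGF-CFC co-receptor of Nodal, was the most abundant of the 9 genes at day 0 in FPKM, which is per length. It was at 1.11 FPKM in KO-labelled and 4.02 FPKM in WT-labelled cells at N2B27 day 6, against 201 FPKM in KO-labelled and 308 FPKM in WT-labelled cells at day 0. In KSR it was at 4.97 FPKM in KO-labelled and 3.16 FPKM in WT-labelled cells at day 4, against 327 FPKM in KO-labelled and 410 FPKM in WT-labelled cells at day 0. It was thus 65.8 to 182 times lower in the 4 differentiated libraries. The fitted differences, −6.26 ± 0.36 in N2B27 and −6.20 ± 0.36 in KSR, were the largest of the 9 genes on the log2 scale (limma adjusted p = 2.66e-05 and 3.58e-05). As a plain ratio of FPKM in N2B27, Lefty2 fell 96.4-fold and Tdgf1 76.7-fold in WT-labelled cells. In KO-labelled cells Lefty2 fell 129-fold and Tdgf1 182-fold. The levels of Tdgf1 at N2B27 day 6 and KSR day 4 overlapped, with a difference of −0.62 ± 0.36 (95% interval −1.47 to 0.23, limma adjusted p = 0.31).

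Acvr2b (chr9:119402118-119434995, + strand), a type II activin receptor that binds Nodal and activins, rose in both media. It was at 25.8 FPKM in KO-labelled and 26.9 FPKM in WT-labelled cells at N2B27 day 6, against 8.48 FPKM in KO-labelled and 5.71 FPKM in WT-labelled cells at day 0. The KSR series had it at 28.4 FPKM in KO-labelled and 30.7 FPKM in WT-labelled cells at day 4, against 8.71 FPKM in KO-labelled and 8.11 FPKM in WT-labelled cells at day 0. The increase was 3.04-fold to 4.71-fold over the 4 pairs, and no differentiated library overlapped a day 0 library. The fitted differences were 1.78 ± 0.18 in N2B27 and 1.70 ± 0.18 in KSR (limma adjusted p = 0.000258 and 0.000371).

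**Figure D2:**
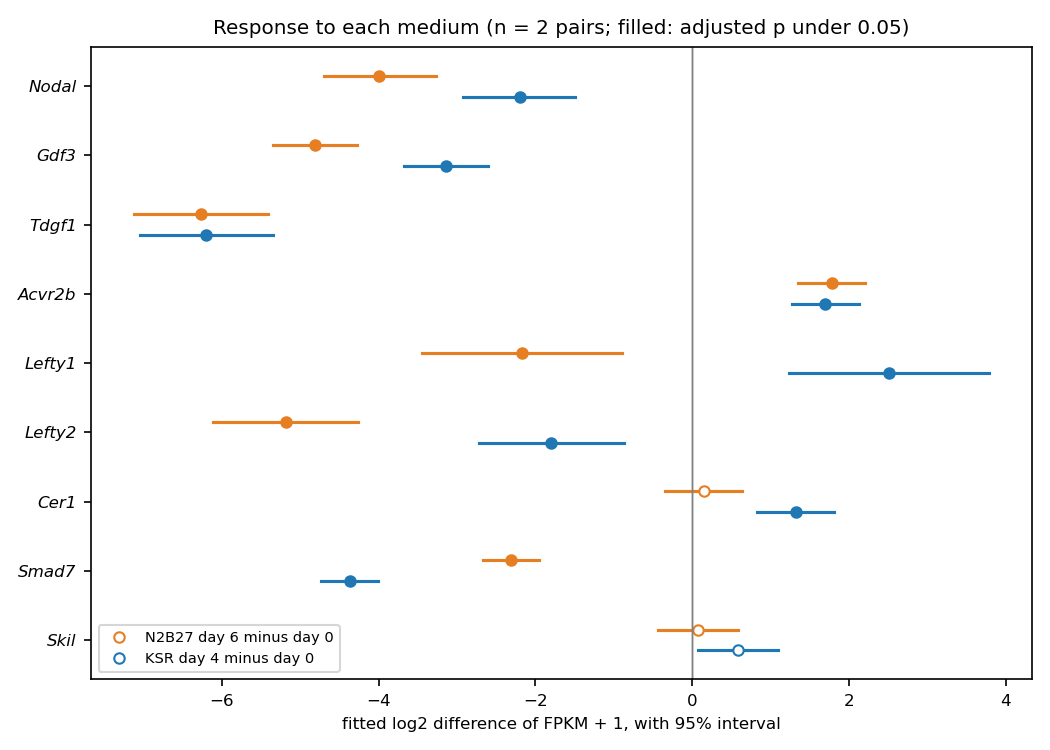
Fitted difference of each gene from the day 0 libraries of the same series, on the scale of log2 of FPKM plus 1, with its 95% interval (2 pairs of libraries per medium), for N2B27 day 6 in orange above KSR day 4 in blue. Filled points passed an adjusted p of 0.05, and Lefty1 is at −2.17 in N2B27 and 2.51 in KSR.

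The secreted antagonists did not move as one. Lefty2, which binds Nodal and its co-receptor and blocks the signal, was at 0.293 FPKM in KO-labelled and 0.82 FPKM in WT-labelled cells at N2B27 day 6, against 37.7 FPKM in KO-labelled and 79.0 FPKM in WT-labelled cells at day 0. At KSR day 4 it was at 6.79 FPKM in KO-labelled and 3.45 FPKM in WT-labelled cells, against 18.1 FPKM in KO-labelled and 21 FPKM in WT-labelled cells at day 0. It was lower in all 4 differentiated libraries than in any day 0 library. The fitted difference was −5.18 ± 0.39 in N2B27 (limma adjusted p = 7.56e-05) and −1.80 ± 0.39 in KSR (limma adjusted p = 0.00844). The KSR call ended when the KO-labelled (adjusted p = 0.0546) or the WT-labelled (adjusted p = 0.0502) day 0 library of that series was left out, or with no filter on low values (adjusted p = 0.0542).

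Lefty1, the paralogue with the same known role, turned in opposite directions in the 2 media. It was at 1.24 FPKM in KO-labelled and 6.87 FPKM in WT-labelled cells at N2B27 day 6, against 14.3 FPKM in KO-labelled and 22.4 FPKM in WT-labelled cells at day 0. In KSR it was at 30.3 FPKM in KO-labelled and 15.8 FPKM in WT-labelled cells at day 4, against 2.61 FPKM in KO-labelled and 3.48 FPKM in WT-labelled cells at day 0. Each genotype showed the same turn: 11.5-fold lower in KO-labelled and 3.26-fold lower in WT-labelled cells in N2B27, and 11.6-fold higher in KO-labelled and 4.54-fold higher in WT-labelled cells in KSR. The fitted differences were −2.17 ± 0.54 in N2B27 (limma adjusted p = 0.0127) and 2.51 ± 0.54 in KSR (limma adjusted p = 0.00813).

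These values of Lefty1 rest on which day 0 cells they are set against. The day 0 level itself was higher in the N2B27 series than in the KSR series, by 2.23 ± 0.54 (limma adjusted p = 0.0909), and the 15.8 FPKM of WT-labelled cells at KSR day 4 lay below the 22.4 FPKM of WT-labelled day 0 cells of the N2B27 series. Against the day 0 libraries of both series together, a setting chosen after the values were seen, the difference was −1.05 in N2B27 (adjusted p = 0.319) and 1.39 in KSR (adjusted p = 0.202), and neither passed. The N2B27 call also ended without the KO-labelled day 0 library (adjusted p = 0.0602), the KO-labelled day 6 library (adjusted p = 0.0737) or the WT-labelled day 0 library (adjusted p = 0.0853) of that series. The KSR call ended without the WT-labelled day 0 library of its series (adjusted p = 0.0539). With no filter on low values neither passed (adjusted p = 0.0733 in N2B27 and 0.0567 in KSR).

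Lefty1 and Lefty2 changed places in both media. The ratio of Lefty1 to Lefty2 FPKM was 4.22 in KO-labelled and 8.38 in WT-labelled cells at N2B27 day 6, against 0.379 in KO-labelled and 0.283 in WT-labelled cells at day 0. At KSR day 4 it was 4.46 in KO-labelled and 4.58 in WT-labelled cells, against 0.145 in KO-labelled and 0.166 in WT-labelled cells at day 0. Lefty1 was thus the higher of the pair in 4 of 4 differentiated libraries and the lower in 4 of 4 day 0 libraries. The ratio was chosen after its values were seen and was not tested. At N2B27 day 6 it is a ratio of low levels, with Lefty2 under 1 FPKM.

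**Figure D3:**
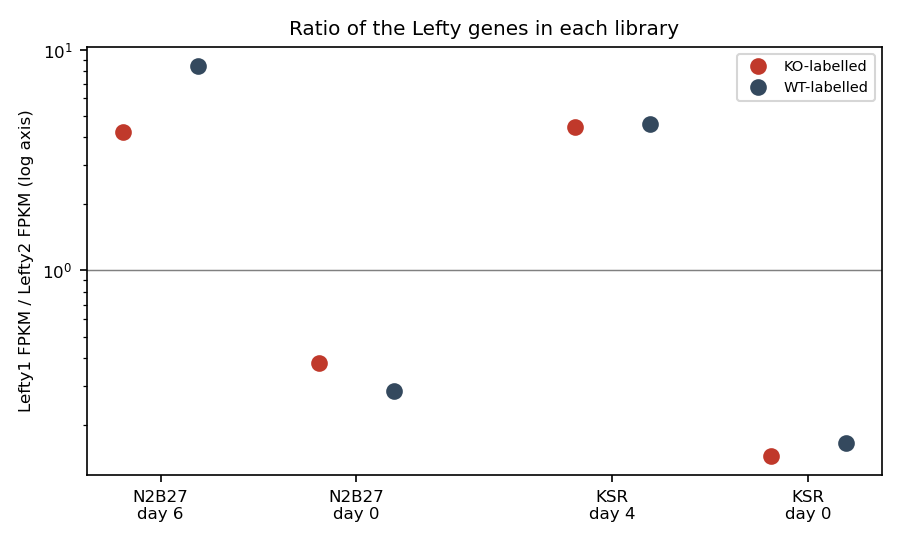
Ratio of Lefty1 FPKM to Lefty2 FPKM in each of the 8 libraries on a log axis, KO-labelled in red and WT-labelled in dark blue, with a line at a ratio of 1. The differentiated libraries lie between 4.22 and 8.38 and the day 0 libraries between 0.145 and 0.379.

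Cer1 (chr4:82881751-82885148, − strand), a secreted antagonist of Nodal and of BMP known from the anterior visceral endoderm, was listed at 0 in 4 of 4 day 0 libraries. It was at 0.0438 FPKM in KO-labelled and 0.175 FPKM in WT-labelled cells at N2B27 day 6, and at 1.84 FPKM in KO-labelled and 1.19 FPKM in WT-labelled cells at KSR day 4. It entered the test through its KSR day 4 libraries alone, so its call there (1.32 ± 0.21, limma adjusted p = 0.00206) had to follow. It is therefore given as a description and supports nothing. The 11 endoderm markers summed to 84.4 FPKM in KO-labelled and 225 FPKM in WT-labelled cells at N2B27 day 6, with Dab2 highest, and to 41.2 FPKM in KO-labelled and 38.1 FPKM in WT-labelled cells at KSR day 4, with Foxa2 highest. At day 0 they summed to 8.03 to 10.3 FPKM in KO-labelled and 8.37 to 11 FPKM in WT-labelled cells, with Hhex highest and 2 or 3 of the 11 at 0, whereas none was at 0 in a differentiated library. The sum does not stand for each gene. Hhex went the other way, at −2.42 ± 0.23 in N2B27 and −1.43 ± 0.23 in KSR (limma adjusted p = 0.00019 and 0.00226). Amn passed in neither medium, and Afp stayed under 1 FPKM and was not tested. The part of the 11 endoderm markers in the levels of Cer1 and Lefty1 was not tested.

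Of the inhibitors inside the cell, Smad7 fell and Skil did not pass the test. Smad7, the inhibitory Smad that blocks the activated receptors, was at 10.2 FPKM in KO-labelled and 12.7 FPKM in WT-labelled cells at N2B27 day 6, against 61.0 FPKM in KO-labelled and 59.8 FPKM in WT-labelled cells at day 0. The KSR series had it at 4.81 FPKM in KO-labelled and 4.24 FPKM in WT-labelled cells at day 4, against 102 FPKM in KO-labelled and 125 FPKM in WT-labelled cells at day 0. The fall was thus 4.73-fold to 5.98-fold in N2B27 and 21.2-fold to 29.5-fold in KSR, the reverse of the order seen for the ligands. The fitted differences were −2.31 ± 0.15 in N2B27 (limma adjusted p = 4.24e-05) and −4.37 ± 0.15 in KSR (limma adjusted p = 1.08e-05).

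Skil (chr3:31095058-31122577, + strand), which encodes SnoN, a nuclear repressor that binds Smads, kept a narrow range. It was at 8.63 FPKM in KO-labelled and 10.8 FPKM in WT-labelled cells at N2B27 day 6, against 10.8 FPKM in KO-labelled and 7.69 FPKM in WT-labelled cells at day 0, so its pairs pointed in opposite directions. At KSR day 4 it was at 15.7 FPKM in KO-labelled and 11.3 FPKM in WT-labelled cells, against 8.90 FPKM in KO-labelled and 8.22 FPKM in WT-labelled cells at day 0. The fitted difference was 0.08 ± 0.22 in N2B27 (95% interval −0.44 to 0.59, limma adjusted p = 0.784). In KSR it was 0.58 ± 0.22 (95% interval 0.07 to 1.09, limma adjusted p = 0.0614), and it passed without either N2B27 day 6 library (adjusted p = 0.026 without the KO-labelled and 0.0265 without the WT-labelled one).

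In N2B27, 6 of the 9 genes fell and 1 rose, where 26.2% of all tested genes fell and 29.7% rose. In KSR, 5 fell and 3 rose, Cer1 among them, where 20.0% of all tested genes fell and 28.5% rose. The median of the 9 fitted differences was −2.31 in N2B27 and −1.80 in KSR, beside 0.04 and 0.08 over all tested genes in the same order. Taken per genotype, with the 2 media as the replicates of differentiation, KO-labelled cells had 4 genes that fell and 1 that rose (10.9% and 16.4% of all genes), and WT-labelled cells had 5 that fell and 1 that rose (13.2% and 17.0%). Tdgf1, Gdf3, Smad7 and Nodal fell and Acvr2b rose in each genotype. Lefty2 passed in WT-labelled cells (−3.88 ± 1.04, limma adjusted p = 0.0424) and not in KO-labelled cells (−3.10 ± 1.04, limma adjusted p = 0.0813). The difference between them, KO-labelled minus WT-labelled, was 0.79 ± 1.48 (limma adjusted p = 1). Lefty1 was at 0.17 ± 1.48 in each genotype, as its values in the 2 media had opposite signs.

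Several of these per-genotype calls rested on single libraries. In KO-labelled cells that of Nodal ended without the KO-labelled N2B27 day 0 library (adjusted p = 0.0668), and that of Smad7 without the KO-labelled KSR day 0 (0.0547) or day 4 (0.0609) library. In WT-labelled cells those of Nodal, Gdf3 and Lefty2 ended without either WT-labelled N2B27 library, with adjusted p of 0.111 and 0.116 for Nodal, 0.0516 and 0.0541 for Gdf3 and 0.265 and 0.272 for Lefty2. That of Smad7 ended without the WT-labelled KSR day 0 (0.0691) or day 4 (0.0705) library. The WT-labelled call of Lefty2 ended too without the eBayes trend (0.0561), with a pseudocount of 0.1 (0.0646) and with no filter on low values (0.168). Lefty2 passed in KO-labelled cells without the KO-labelled KSR day 0 (0.0115) or day 4 (0.0149) library.

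N2B27 day 6 and KSR day 4 cells differed at most of the 9 genes. Lefty1 (−2.45 ± 0.54, limma adjusted p = 0.0372), Lefty2 (−1.94 ± 0.39, 0.0297), Gdf3 (−1.55 ± 0.23, 0.0133) and Nodal (−1.54 ± 0.30, 0.0278) were lower at N2B27 day 6 than at KSR day 4. Cer1 was lower there too (−1.17 ± 0.21, limma adjusted p = 0.0217). It had passed the filter through its KSR day 4 libraries alone, so this direction had to follow and its call supports nothing. Smad7 was higher at N2B27 day 6 (1.16 ± 0.15, limma adjusted p = 0.00979). These are 5 lower and 1 higher of 9, or 4 and 1 of the 8 without Cer1, where 4.78% of all tested genes were lower and 5.02% higher. Medium and day differ together and cannot be told apart. Without the KO-labelled KSR day 4 library none of the 8 genes still tested passed, and 56 of all genes did. Over all libraries left out in turn between 0 and 4 of the 9 passed, so that these calls rest on single libraries.

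Each medium also has its own day 0 cells, so the responses themselves can be compared. That test was added after the values of Lefty1 had been seen. The response in N2B27 minus that in KSR was −4.68 ± 0.76 for Lefty1, −3.38 ± 0.55 for Lefty2 and −1.68 ± 0.32 for Gdf3, with limma adjusted p of 0.0337, 0.0337 and 0.0435. For Smad7 it was 2.06 ± 0.21 (limma adjusted p = 0.013). Nodal, at −1.78 ± 0.43, did not pass (limma adjusted p = 0.0713), and neither did Tdgf1, at −0.06 ± 0.51 (95% interval −1.27 to 1.14). These are 4 of the 9 genes, beside 3.97% of all tested genes. Leaving out single libraries left between 0 and 2 of the 9, with 0 without the KO-labelled KSR day 0, KO-labelled KSR day 4, KO-labelled N2B27 day 0, WT-labelled KSR day 0 or WT-labelled N2B27 day 0 library.

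The day 0 cells of the 2 series, both in stem cell medium, differed at 1 of the 9 genes, beside 2.07% of all tested genes. Smad7 was lower in the N2B27 series (−0.89 ± 0.15, limma adjusted p = 0.0411). This call ended without any 1 of the 8 libraries, with adjusted p of 0.0546 to 0.321. Lefty2 was at 1.44 ± 0.39 (limma adjusted p = 0.113) and Lefty1 at 2.23 ± 0.54. Over the day 0 libraries of a genotype, n = 2 each, Lefty1 averaged 8.44 ± 8.25 FPKM in KO-labelled and 12.9 ± 13.4 FPKM in WT-labelled cells (SD), whereas Nodal averaged 28.9 ± 3.28 FPKM in KO-labelled and 32.9 ± 4.16 FPKM in WT-labelled cells.

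None of the 9 genes passed between the genotype labels. Over the 4 conditions, KO-labelled minus WT-labelled, the fitted differences lay between −0.46 for Lefty1 (95% interval −1.37 to 0.44) and 0.17 for Skil (−0.19 to 0.54). Nodal was at −0.04 (−0.55 to 0.47), Gdf3 at −0.28 (−0.66 to 0.10), Tdgf1 at −0.42 (−1.02 to 0.18), Lefty2 at −0.24 (−0.89 to 0.42) and Acvr2b at 0.11 (−0.20 to 0.41). By limma 0 of the 9 passed, nor were any of the 9 at an unadjusted p under 0.05. Of all tested genes 0.00626% passed, which is 1 gene, Eif2s3y, and 694 had an unadjusted p under 0.05. The test of the difference between the genotypes' responses to differentiation called 0 of the 9 by limma, and 0% of all genes, with 166 genes at an unadjusted p under 0.05. Its intervals were wide: −1.88 to 2.43 for Nodal and −0.86 to 1.07 for Tdgf1.

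Within single conditions the genes leaned in different directions by label, which 1 library per label and condition cannot test. At N2B27 day 6, 9 of 9 genes were lower in the KO-labelled library, with a median difference of −0.49, where 46.0% of all tested genes were lower. At KSR day 4, 8 of 9 were higher in the KO-labelled library, with a median of 0.44, where 49.1% of all genes were higher, and Acvr2b was the exception. At day 0, KO-labelled minus WT-labelled, the median was −0.19 in the N2B27 series, with 5 of 9 lower, near the 56.7% of all tested genes. In the KSR series it was −0.21 at day 0, with 6 of 9 lower, where 52.4% of all tested genes were lower. The summed naive stem cell markers moved with the same libraries. Their sum was 15.2 FPKM in KO-labelled and 49.9 FPKM in WT-labelled cells at N2B27 day 6, and 119 FPKM in KO-labelled and 69.3 FPKM in WT-labelled cells at KSR day 4. The KSR sum was mostly Pou5f1 (90.4 FPKM in KO-labelled and 47.8 FPKM in WT-labelled cells), while Zfp42 was at 6.66 FPKM in KO-labelled and 7.23 FPKM in WT-labelled cells. The 4 neuron markers summed to 55.7 FPKM in KO-labelled and 196 FPKM in WT-labelled cells at N2B27 day 6, and to 58 FPKM in KO-labelled and 52.5 FPKM in WT-labelled cells at KSR day 4. The part of either marker list in the levels of the 9 genes was not tested. The 9 genes of a library also share that library, so their common direction is not 9 observations.

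**Figure D4:**
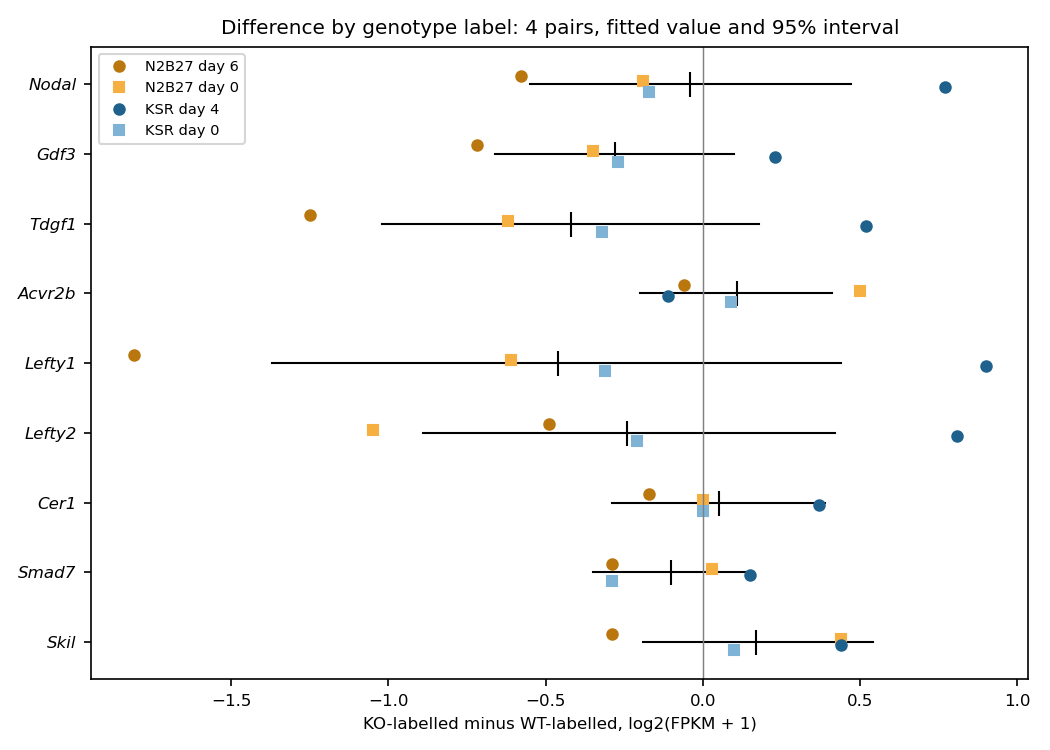
Difference of each gene between KO-labelled and WT-labelled libraries in log2 of FPKM plus 1, 1 coloured point per condition, with the fitted value over the 4 conditions (tick) and its 95% interval (line). For every gene the interval spans 0; the N2B27 day 6 points lie left of 0, and the KSR day 4 points lie right of it for all genes but Acvr2b.

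The rest of the pathway was read from 5 lists with 50 further genes, of which 45 passed the filter on low values. In N2B27, 21 of the 45 rose and 11 fell, with a median of 0.27, and in KSR 19 rose and 9 fell, with a median of 0.26. Over all tested genes 29.7% rose and 26.2% fell in N2B27, and 28.5% rose and 20.0% fell in KSR, so the counts that fell are near the share over all genes. Of the 45, 6 reached 1 FPKM in differentiated libraries alone, among them Gdf11, Tgfb2, Tgfb3 and Foxa2, and 3 in day 0 libraries alone, among them Inhbb and Gsc. The filter on low values fixed the direction of these 9, so their values are a description and their calls support nothing. All 9 are within the 21 and 11 counted in N2B27, and part of them within the KSR counts. Those counts therefore rest in part on the filter. Sox17 and Fgf8 reached 1 FPKM in 4 differentiated libraries and 1 day 0 library, so they could not have passed the filter through day 0 alone. Leaving out single libraries left 26 to 31 of the 45 called in N2B27 and 21 to 30 in KSR. Between the genotype labels 0 of the 45 passed by limma, over the 4 conditions or in the response.

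Among the other ligands and their convertases, 9 tested genes, 4 rose and 4 fell in N2B27, and 4 rose and 3 fell in KSR, beside the shares over all genes above. Gdf11, a ligand that acts through the same type II receptors, was at 8.56 FPKM in KO-labelled and 12.8 FPKM in WT-labelled cells at N2B27 day 6, and under 0.5 FPKM in 4 of 4 day 0 libraries. Having passed the filter through the differentiated libraries alone, it had a fitted difference of 2.97 ± 0.21 in N2B27 and 2.56 ± 0.21 in KSR (limma adjusted p = 6.29e-05 and 0.000133), which the filter fixed in direction. Pcsk6 (PACE4), a convertase that cleaves the Nodal precursor, fell by 2.45 ± 0.28 in N2B27 and fell by 3.22 ± 0.28 in KSR (limma adjusted p = 0.000433 and 0.000156). Inhbb, which encodes the subunit of activin B, was at 1.99 to 5.23 FPKM at day 0 and at most 0.326 FPKM in the differentiated libraries, so that its fall had to follow (−1.83 ± 0.33 in N2B27 and −2.09 ± 0.33 in KSR; limma adjusted p = 0.00327 and 0.00222). Tgfb3, a TGF-beta ligand, was at 1.35 to 1.98 FPKM in differentiated and 0.0695 to 0.0902 FPKM in day 0 libraries, and its rise had to follow likewise (1.23 ± 0.19 in N2B27 and 1.40 ± 0.19 in KSR; 0.00152 and 0.00103).

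Tgfb2, Tgfb1 and Gdf1 come with limits. Tgfb2 rose in N2B27 (2.58 ± 0.32, limma adjusted p = 0.000647), having reached 1 FPKM there alone, so that its call had to follow. Tgfb1 fell by 2.65 ± 0.22 in N2B27 (limma adjusted p = 0.000105) and fell by 0.84 ± 0.22 in KSR (0.0168), where the call ended without the KO-labelled day 0, WT-labelled day 0 or WT-labelled day 4 library of that series. Its day 0 level was higher in the N2B27 than in the KSR series (1.42 ± 0.22, limma adjusted p = 0.0325), a call that ended without any 1 of 6 of the libraries. N2B27 day 6 minus KSR day 4 was −0.38 ± 0.22 for Tgfb1 (limma adjusted p = 0.297). Gdf1 was at 2.46 FPKM in KO-labelled and 2.12 FPKM in WT-labelled cells at KSR day 4, with estimates such as 3.44e-18 FPKM in KO-labelled cells at N2B27 day 6. Such estimates cannot be read as levels, and the values of Gdf1 are uncertain. Their cause was not tested.

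The receptors rose where they passed, apart from 1. Acvr2a, the other type II activin receptor, rose by 2.24 ± 0.18 in N2B27 and 1.81 ± 0.18 in KSR (limma adjusted p = 0.000109 and 0.000315). It was at 14.3 FPKM in KO-labelled and 14.7 FPKM in WT-labelled cells at N2B27 day 6, and at 1.74 to 2.56 FPKM over the day 0 libraries. Tgfbr1, a type I receptor, rose by 2.20 ± 0.18 in N2B27 and 2.04 ± 0.18 in KSR (limma adjusted p = 0.000107 and 0.000169). Acvr1b, which encodes Alk4, the type I receptor used by Nodal, fell in KSR (−0.54 ± 0.14; limma adjusted p = 0.0166), a call that ended without any 1 of the 4 KSR libraries. In N2B27 it was at −0.34 ± 0.14 (limma adjusted p = 0.0729). The EGF-CFC gene Cfc1 stayed under 1 FPKM in every library and was not tested.

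Of the 10 Smads and nuclear partners, 5 rose and 2 fell in N2B27, and 5 rose and 1 fell in KSR. Over all genes 29.7% rose and 26.2% fell in N2B27, and 28.5% rose and 20.0% fell in KSR. The signal-carrying Smad3 rose by 1.67 ± 0.21 in N2B27 and 1.29 ± 0.21 in KSR (limma adjusted p = 0.000665 and 0.00249). Smad4, the common partner, rose by 0.77 ± 0.11 in N2B27 and 1.40 ± 0.11 in KSR (limma adjusted p = 0.0012 and 0.000107). Tgif1, a homeobox repressor that binds Smads, fell by 1.28 ± 0.15 in N2B27 and fell by 1.0 ± 0.15 in KSR (limma adjusted p = 0.000429 and 0.00153), while its paralogue Tgif2 rose by 0.67 ± 0.12 in N2B27 and 1.07 ± 0.12 in KSR (0.00329 and 0.000513).

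Foxh1, the forkhead partner of Smad2 that carries the response to Nodal, differed between the media. It was at 6.27 FPKM in KO-labelled and 3.14 FPKM in WT-labelled cells at N2B27 day 6, against 26.4 FPKM in KO-labelled and 32.5 FPKM in WT-labelled cells at day 0. In KSR it was at 42.2 FPKM in KO-labelled and 27.5 FPKM in WT-labelled cells at day 4, against 19.0 FPKM in KO-labelled and 20.2 FPKM in WT-labelled cells at day 0. It fell by 2.47 ± 0.28 in N2B27 (limma adjusted p = 0.000393), was at 0.77 ± 0.28 in KSR (0.0553) and was lower at N2B27 day 6 than at KSR day 4 (−2.68 ± 0.28, 0.00529). The last of these ended without the KO-labelled KSR day 4 library (adjusted p = 0.059). The response in N2B27 minus that in KSR was −3.23 ± 0.39 (limma adjusted p = 0.0174), a call that ended without any 1 of 6 of the libraries: all but both N2B27 day 6 libraries.

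Of the 11 other inhibitors tested, 4 rose and 2 fell in N2B27, and 3 rose and 2 fell in KSR. Over all genes 29.7% rose and 26.2% fell in N2B27, and 28.5% rose and 20.0% fell in KSR, so the counts in both media are near that background. Fst (follistatin), which binds activins outside the cell, rose by 1.73 ± 0.18 in N2B27 and 2.59 ± 0.18 in KSR (limma adjusted p = 0.000311 and 6.9e-05). Its day 0 level, N2B27 series minus KSR series, differed by −1.01 ± 0.18 (limma adjusted p = 0.0471), a call that ended without any 1 of 6 of the libraries. Pmepa1, a membrane protein that sequesters Smads and is induced by TGF-beta signals, fell by 1.35 ± 0.31 in N2B27 and fell by 2.92 ± 0.31 in KSR (limma adjusted p = 0.00975 and 0.000399), the N2B27 call ending without either N2B27 day 0 library. Like Smad7, it was higher at N2B27 day 6 than at KSR day 4 (1.47 ± 0.31, limma adjusted p = 0.0342), which ended without any 1 of 7 of the libraries. Ski, the paralogue of Skil, rose by 0.77 ± 0.13 in N2B27 and 0.99 ± 0.13 in KSR (limma adjusted p = 0.00218 and 0.000852).

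Of the 10 mesendoderm genes, known targets of the pathway in the gastrula, 5 rose and 3 fell in N2B27, and 5 rose and 2 fell in KSR. Over all genes 29.7% rose and 26.2% fell in N2B27, and 28.5% rose and 20.0% fell in KSR, so the counts that fell are near those shares. Foxa2 and Wnt3, among those that rose, reached 1 FPKM in differentiated libraries alone, so the counts that rose rest in part on the filter. Gsc and Eomes, which Nodal switches on in the mouse primitive streak, fell, with Gsc at −3.60 ± 0.28 in N2B27 and −2.04 ± 0.28 in KSR (limma adjusted p = 8.41e-05 and 0.00116), and Eomes at −1.11 ± 0.35 in N2B27 and −2.16 ± 0.35 in KSR (0.0319 and 0.00245). Gsc was at 3.08 to 15.2 FPKM at day 0 and at most 0.382 FPKM in the differentiated libraries, so that its fall had to follow. Its day 0 level, N2B27 series minus KSR series, differed by 1.58 ± 0.28 (limma adjusted p = 0.0457), a call that ended without any 1 of the 8 libraries. The N2B27 call of Eomes ended without either N2B27 day 0 library or the KO-labelled day 6 library. T, on the same list, fell in N2B27 (−1.15 ± 0.24, limma adjusted p = 0.00627) and did not pass in KSR (−0.38 ± 0.24, limma adjusted p = 0.229). Its N2B27 call ended without the KO-labelled N2B27 day 0 library. Foxa2, which marks endoderm and the floor plate of the neural tube, was at 9.38 to 32 FPKM in differentiated libraries and at most 0.299 FPKM at day 0, so that its rise had to follow (3.93 ± 0.44 in N2B27 and 3.91 ± 0.44 in KSR, limma adjusted p = 0.000407 and 0.000495). The endoderm gene Sox17 rose by 4.15 ± 0.35 in N2B27 (limma adjusted p = 0.000125) and by 1.14 ± 0.35 in KSR (0.0345), where the call ended without any 1 of 6 of the libraries: all but both N2B27 day 6 libraries. Sox17 reached 1 FPKM in 4 differentiated libraries and 1 day 0 library, too few at day 0 to pass the filter, so its rise is a description. Fgf8, with the same limit, was at 3.21 ± 0.25 in KSR (limma adjusted p = 9.77e-05) and at 0.27 ± 0.25 in N2B27 (0.376). Its response in N2B27 minus that in KSR was −2.94 ± 0.35 (limma adjusted p = 0.0174), which ended without any 1 of 6 of the libraries.

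**Figure D5:**
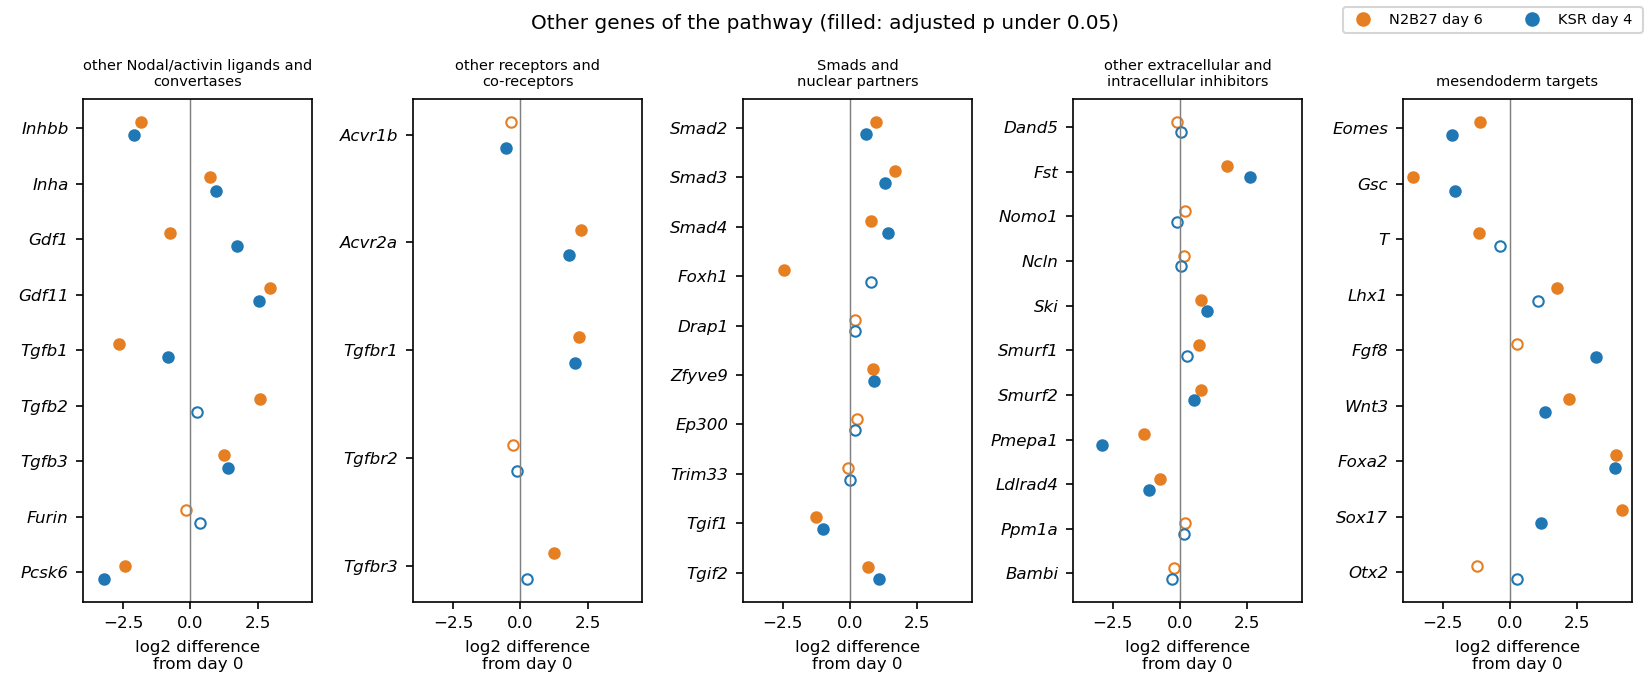
Fitted difference from day 0, in log2 of FPKM plus 1, of the other pathway genes tested, by list (1 of the 45 is not shown), with N2B27 day 6 in orange and KSR day 4 in blue, and filled points at an adjusted p under 0.05. Acvr2a, Tgfbr1, Smad3 and Fst lie right of 0 in both media, Pcsk6, Inhbb, Gsc and Tgif1 lie left of it in both, and Foxh1 lies at −2.47 in N2B27 and 0.77 in KSR.

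The promoters of the genes with an entry in the RefSeq table for GRCm38.p6 were read for the binding sequences of the pathway. Of 8 genes looked up 4 matched: Nodal, Tdgf1, Acvr2b and Cer1. The 250 bases before the start of Nodal and of Tdgf1, which fell in both media, follow on the strand of the gene, with the Smad motif CAGAC in capitals.
Nodal, chr10:61417722-61417971, + strand: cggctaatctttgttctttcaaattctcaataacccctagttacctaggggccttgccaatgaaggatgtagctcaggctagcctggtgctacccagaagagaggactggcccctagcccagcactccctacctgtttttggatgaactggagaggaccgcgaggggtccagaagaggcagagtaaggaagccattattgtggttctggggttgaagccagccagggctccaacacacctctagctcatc
Tdgf1, chr9:110946159-110946408, − strand: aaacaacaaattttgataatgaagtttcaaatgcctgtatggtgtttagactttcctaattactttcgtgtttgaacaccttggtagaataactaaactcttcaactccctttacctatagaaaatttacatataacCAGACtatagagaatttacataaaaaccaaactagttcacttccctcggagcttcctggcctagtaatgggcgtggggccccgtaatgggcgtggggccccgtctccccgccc
The motifs AATCCACA (FoxH1), GTCTAGAC (Smad palindrome) and CAGAC (the short Smad motif) were searched on both strands from 250 bases before to 50 after the start. CAGAC was found in Tdgf1 at −113, in Cer1 at −213 and, as its reverse complement GTCTG, in Acvr2b at −233. It is a short motif, which 49.6% of all 32851 promoters hold, against 0.213% for the palindrome and 0.855% for the FoxH1 motif. None of the 3 motifs was in the Nodal window, and neither of the longer motifs in any of the 4, which says only that these letters are not there.

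The genes whose pattern over the 8 libraries was most like that of Nodal were lower in all 4 differentiated libraries than in all day 0 libraries. Likeness was the root mean square difference of log2 of FPKM plus 1 after centring each gene, over 10945 genes that reached 5 FPKM, and its median over all of them was 1.71. The closest were Cldn4 and Alpl (0.21 each), Cdh1 (0.22), EU599041 (0.24) and Dppa4 (0.27). Cdh1, which encodes E-cadherin, was at 7.73 FPKM in KO-labelled and 20.1 FPKM in WT-labelled cells at N2B27 day 6, and at 45.7 FPKM in KO-labelled and 24.5 FPKM in WT-labelled cells at KSR day 4. Over the day 0 libraries it was at 153 to 187 FPKM. The 5 were chosen by their likeness over these same libraries, so that what they share with Nodal here is fixed by the choice.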

How the data were processed

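The FPKM of the 8 libraries are the authors' deposited values. The submitters' processing notes name STAR, Cufflinks and the build mm10, with no version or setting. The labels' protocols give a SMARTer kit for mRNA and paired reads of 150 bases. Of 55188 rows, 110 repeats with identical values were dropped. Titles gave the groups, and columns were matched to titles by name: 4 descriptions name another column, so for the KO-labelled KSR columns the name shows the group alone. The WT-labelled N2B27 column reads day 7, its title day 6.

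Genes at 1 FPKM or more in at least 2 libraries (15965) were fitted as log2 of FPKM plus 1 with limma 3.58.1 (eBayes with a trend) in R 4.3.3, and p-values were adjusted by Benjamini-Hochberg at 0.05. Comparisons between conditions came from an additive fit of genotype and condition, those per genotype from a fit with each genotype and series as a block, since a differentiated library pairs with the day 0 library of its series. The SE is that of the fit. Both fits were tested on simulated data.

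The members and lists were chosen with earlier results of these data known. Named were the 9 genes, the 5 genes most like Nodal, and at most 3 list genes per direction among those with the larger changes. Foxh1, Tgfb2, Gdf1, Pmepa1, Acvr1b, Cfc1, Ski, Tgif2 and Sox17 were also described for their values. The list genes described were not always those with the largest change. In N2B27, Smad2 and Zfyve9 rose by 0.96 and 0.85, more than Smad4, and Tgfbr3 rose by 1.24, and their values were not described. Other pseudocounts, filters, scaling, eBayes settings and left-out libraries were tried. A planned comparison of proteins and the promoters of Lefty1 and Lefty2 were not used here; the coding sequence of Tdgf1 was compared with its pseudogene instead. Of the lists, 1 gene that passed is counted and not reported here.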

Additional observations from a re-analysis of the deposited data

Results flagged for a closer look

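The response to N2B27 differed from the response to KSR at 4 of the 9 genes, by a test of the difference itself that was added after values had been seen. On the scale of log2 of FPKM plus 1, N2B27 minus KSR, the difference was −4.68 for Lefty1, −3.38 for Lefty2 and −1.68 for Gdf3, and 2.06 for Smad7. For Lefty1 the N2B27 and KSR responses have opposite signs, whereas for Lefty2, Gdf3 and Smad7 both are falls of unequal size. The day 0 levels of the 2 series enter these values: Lefty1, Lefty2 and Smad7 differed between them by 2.23, 1.44 and −0.89 (N2B27 series minus KSR series), Gdf3 by 0.13. Medium and day differ together and cannot be told apart. Each of the 4 calls ended when single libraries were left out: that of Lefty1 without 6, Lefty2 without 7, Gdf3 without any of the 8 and Smad7 without 6 of the libraries in turn.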

How the results depend on the processing

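Of 1080 values of the 9 genes recomputed under the alternatives, 900 kept direction and side of the threshold, 69 did not pass either way and changed sign, 105 lost the call, 6 gained it and 0 reversed a call. With no filter on low values, the members called were 2 in place of 5 for differentiation in KO-labelled cells (1107 in place of 4362 genes in all). In WT-labelled cells they were 2 in place of 6 (1675 in place of 4829). For N2B27 day 6 minus KSR day 4 they were 2 in place of 6 (451 in place of 1565). Between the day 0 series they were 0 in place of 1 (65 in place of 330), and for the N2B27 minus KSR response 0 in place of 4 (46 in place of 634). In KSR 6 in place of 8 passed, without Lefty1 and Lefty2 (7329 in place of 7738 genes). In N2B27 6 in place of 7 passed, without Lefty1 (8723 in place of 8919 genes). The day 0 count was also 0 without the trend and with a pseudocount of 0.1. Leaving out each library in turn gave 4 to 5 members for KO-labelled (1883 to 4185 genes) and 3 to 6 for WT-labelled cells (1574 to 4745). It gave 6 to 9 for KSR (4745 to 8042 genes) and 6 to 7 for N2B27 (6538 to 8238). It gave 0 to 4 for N2B27 minus KSR (56 to 1279), 0 for the day 0 series (1 to 237) and 0 to 2 for the response difference (0 to 484). Without the replicate block, 6 members passed in KO-labelled cells (4742 genes), 6 in WT-labelled cells (5377) and 0 between the labels (1 gene) or their responses (1 gene). Cer1 could not be fitted at 1 FPKM in 4 libraries or without a KSR day 4 library. Without counts, depth and the error of low FPKM are unknown, and each condition has 1 library per label.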

Other observations

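The genes whose pattern was most like that of Lefty1 were looked up after its values had been seen. Likeness was lower than for Nodal, with root mean square differences of 0.74 for B3gnt7, 0.78 for Gbx2 and Grb7, 0.81 for Gstt2 and 0.83 for Cpt1b, beside a median of 1.35 over 10945 genes. Gbx2, a homeobox gene of the anterior hindbrain and of stem cells, was at 12.7 FPKM in KO-labelled and 47.1 FPKM in WT-labelled cells at N2B27 day 6, against 42.4 FPKM in KO-labelled and 25.7 FPKM in WT-labelled cells at day 0. At KSR day 4 it was at 76.5 FPKM in KO-labelled and 77.4 FPKM in WT-labelled cells, against 17.9 FPKM in KO-labelled and 18.1 FPKM in WT-labelled cells at day 0.

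The ratio of Nodal to Gdf3 FPKM was 1.60 in KO-labelled and 1.14 in WT-labelled cells at N2B27 day 6 and 1.44 in KO-labelled and 0.924 in WT-labelled cells at KSR day 4, against 0.565 to 0.669 over the 4 day 0 libraries. The ratio was chosen after its values were seen and was not tested.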
